A study of Mus musculus with 2 samples.

Results

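The respiratory chain and ATP synthase of mitochondria consist of 5 complexes, and the nuclear genes of complexes II to V are described here in the hearts of 2 mice. They were chosen by symbol: protein-coding genes named Sdha, Sdhb, Sdhc, Sdhd, Cyc1 or Cycs, or with a symbol that starts with Uqcr, Uqcc, Cox4, Cox5, Cox6, Cox7, Cox8 or Atp5. This gave 53 gene identifiers with 52 symbols, of 22028 protein-coding genes and 55536 genes in all, because Atp5o is carried by 2 identifiers. By their known roles 4 belong to complex II, 9 to complex III, 17 to complex IV and 17 to complex V, 1 is cytochrome c, and 5 are assembly factors or related genes. A further 8 symbols matched but are annotated as pseudogenes and were left out.

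Complex II oxidises succinate and passes the electrons to ubiquinone. Complex III moves them on to cytochrome c, a small soluble carrier, and complex IV, cytochrome c oxidase, hands them to oxygen. Complexes III and IV pump protons across the inner membrane, and complex V, the ATP synthase, makes ATP as protons flow back. Heart muscle relies on this pathway for most of its ATP, and several subunits of complex IV have a form, encoded by a gene of its own, that is typical of heart and skeletal muscle.

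Both animals were males of the hybrid strain B6CASTF1/J, 25 days of age, and carried no treatment or engineered allele per the labels. Total RNA of the whole heart (300 ng, with synthetic spike-in RNAs) gave 1 library from each animal, numbered replicates 2 and 1, and these form a single group of n = 2. The labels name animals 4 (replicate 2) and 3 (replicate 1) of a tissue bank but give the same donor identifier for both, and nothing more says how far the samples are independent. The hearts are an F1 hybrid read against a reference of 1 genome, and the values do not separate the parental alleles. In whole tissue, fewer cells of a type and less RNA per cell cannot be told apart.

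The first quantification, made from alignments to the transcriptome, held 40655101 estimated counts on genes in replicate 2 and 38253821 in replicate 1, which puts the limit of 3 counts, the most that 0 observed counts allow, at 0.0725 and 0.0798 CPM (counts scaled to a common library total). The second was made directly from the reads. Levels are given in TPM, an abundance that corrects for transcript length and sums to the same total in each library, from the first quantification unless the second is named, and as mean ± SD over both hearts (n = 2). All 8 heart muscle markers, Myh6 and Tnnt2 among them, exceeded 1 TPM in both hearts and summed to 30335 and 28233 TPM in replicates 2 and 1. The 5 adipocyte markers summed to 31.4 TPM in replicate 2 and 221 TPM in replicate 1, and the 5 red cell markers to 23411 and 46562 TPM, so blood and fat transcripts were lower in replicate 2.

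Nearly the whole set was abundant. The members together took 2.14% of gene counts in replicate 2 and 1.93% in replicate 1, and 8.76% and 8.12% of the TPM of nuclear protein-coding genes. TPM reached 1 in both hearts for 49 of 53 members (92.5%), against 49.5% of all protein-coding genes. The median member had 518 TPM, and the median nuclear protein-coding gene at 1 TPM or more had 8.12 TPM. Of the 100 nuclear protein-coding genes with the highest mean TPM, 31 were members, and 45 of the 53 members ranked among the top 1000. The members that did not reach 1 TPM in both hearts were Cox6b2, Cox7b2 and Cox8c, which encode forms of complex IV subunits known from testis, and the second Atp5o identifier, listed at 0 counts in both hearts.

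**Figure D1:**
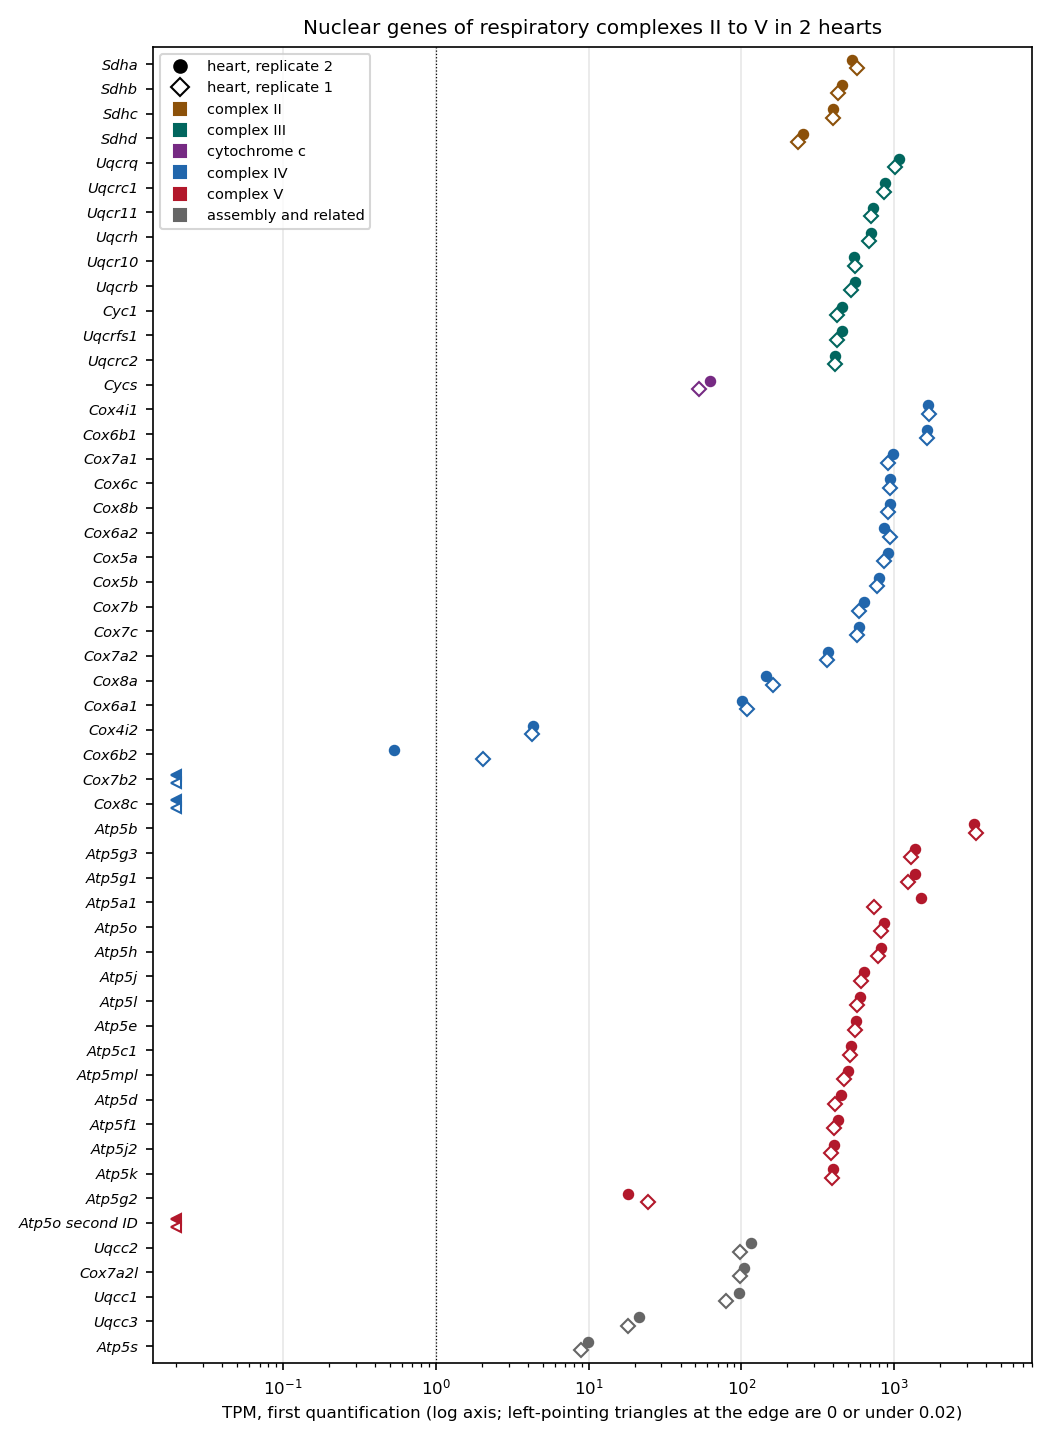
TPM (log axis) of all 53 members in the heart of replicate 2 (filled circles) and replicate 1 (open diamonds), ordered within each complex by mean, with a dotted line at 1 TPM. Most members lie between 100 and 3428 TPM with the hearts close together, while Atp5a1 stands apart between the hearts (1497 against 736 TPM) and Cox7b2, Cox8c and the second Atp5o identifier sit at 0.

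Complex II, which is also an enzyme of the citric acid cycle and has no mitochondrially encoded subunit, had a median of 422 TPM over its 4 genes. Sdha, the flavoprotein that oxidises succinate, had 533 TPM in replicate 2 and 568 TPM in replicate 1. Sdhb, the iron-sulfur subunit, had 454 and 432 TPM. The membrane anchors were lower, with 401 and 399 TPM for Sdhc and 254 and 234 TPM for Sdhd. In the first quantification the order within each heart was thus Sdha, Sdhb, Sdhc, Sdhd, with an Sdha to Sdhd ratio of 2.10 in replicate 2 and 2.43 in replicate 1. The second quantification put Sdhb, with 659 and 601 TPM, above Sdha, with 487 and 489 TPM. There the anchors overlapped, with 289 and 266 TPM for Sdhc and 290.2 and 251 TPM for Sdhd, so both anchors stayed under the other 2 subunits and the rest of the order depended on the quantification.

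The 9 genes of complex III had means from 411 to 1041 TPM with a median of 551 TPM. Uqcrq, a small accessory subunit, led with 1071 TPM in replicate 2 and 1011 TPM in replicate 1. The core protein gene Uqcrc1 followed with 877 and 863 TPM, and the accessory subunit gene Uqcr11 had 732 and 705 TPM. Uqcrfs1, the Rieske iron-sulfur protein that carries electrons within the complex, had 456 and 422 TPM, and Cyc1, cytochrome c1, had 453 and 426 TPM. These values overlapped, while the second quantification put Cyc1, with 957 and 855 TPM, above Uqcrfs1, with 549.6 and 485 TPM. Uqcrc2, the other core protein gene, was lowest with 409 and 413 TPM, and Uqcrc1 exceeded it 2.14-fold in replicate 2 and 2.09-fold in replicate 1. In the second quantification Uqcrc2 had 737 and 699 TPM and Uqcrfs1 was the lowest, and Uqcrc1 exceeded Uqcrc2 1.68-fold and 1.73-fold. The remaining members, Uqcrh, Uqcr10 and Uqcrb, lay between 525 and 711 TPM in either heart.

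Cycs, somatic cytochrome c, had only 61.9 TPM in replicate 2 and 52.8 TPM in replicate 1, far under every subunit of complex III. That level depends on the quantification: the second gave 847 and 681 TPM, and the Cycs to Cyc1 ratio was 0.885 and 0.796 there, against 0.137 and 0.124 in the first.

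Complex IV had a median of 612 TPM, and its 17 genes spanned 0 to 1676 TPM. Cox4i1, the common form of subunit 4 and the largest nuclear subunit, had 1668 TPM in replicate 2 and 1684 TPM in replicate 1. Cox6b1, the common form of subunit 6B on the intermembrane face, had 1638 and 1647 TPM. Cox4i1 was the higher in both hearts by a small margin, which the second quantification widened (2442 and 2449 TPM for Cox4i1, 1027 and 926 TPM for Cox6b1). There Cox6b1 was also under Cox6c, Cox7c, Cox8b, Cox7b, Cox7a1, Cox5a and Cox5b in both hearts. Its place next to Cox4i1 thus held in the first quantification only. In the first, both stood above Cox7a1, the next gene by mean, at 983 and 910.1 TPM. Cox6c, Cox8b, Cox6a2, Cox5a, Cox5b, Cox7b and Cox7c had between 575 and 947 TPM in either heart. In replicate 1 Cox6a2 (944 TPM) and Cox6c (936 TPM) were above Cox7a1. In the second quantification Cox6c, Cox7c, Cox8b and Cox7b were above Cox7a1 in both hearts, with means of 1894, 1567, 1406 and 1335 against 1186 TPM.

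In the subunits with a heart and muscle form, that form was the higher of the pair in both hearts. For subunit 6A the muscle gene Cox6a2 had 856 TPM in replicate 2 and 944 TPM in replicate 1, and the common gene Cox6a1 had 101 and 109 TPM. The log2 ratio within a heart (of TPM + 0.1) was 3.10 ± 0.02, so 89.6% ± 0.145 of the pair's TPM was Cox6a2. For subunit 8 the muscle gene Cox8b had 937 and 909.6 TPM, and the common gene Cox8a 146 and 162 TPM, a log2 ratio of 2.59 ± 0.14. For subunit 7A the bias was smaller: Cox7a1 had 983 and 910.1 TPM and Cox7a2 369.7 and 366 TPM, a log2 ratio of 1.36 ± 0.07, or 72.0% ± 0.961 Cox7a1. The second quantification kept the direction in both hearts for all 3, with log2 ratios of 2.64 ± 0.09 for subunit 6A, 2.52 ± 0.03 for subunit 8 and 0.46 ± 0.06 for subunit 7A. There the muscle form made up 57.9% ± 0.957 of subunit 7A.

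The muscle forms of subunits 7A and 8 are also known from brown fat. Of the 5 brown fat markers, Ucp1, the uncoupling protein that defines brown fat, had 3.65 TPM in replicate 2 and 4.83 TPM in replicate 1, Cidea had 15.5 and 15.6 TPM, and the other 3 stayed under 1 TPM. The 5 summed to 19.5 and 20.9 TPM in replicates 2 and 1. Their part in the pair ratios was not tested.

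The coding sequences of the muscle and common forms are shown because the split of reads between them rests on how far they differ. They come from the leading transcripts of the first quantification (GENCODE M21 annotation), 5′ to 3′. The longest run that a pair shares is in capitals. Cox8b (chr7:140898945-140900446, minus strand, mm10) has 213 coding bases and Cox8a (chr19:7215153-7217616, minus strand) has 210. Cox7a1 (chr7:30184144-30186078, plus strand) has 243 and Cox7a2 (chr9:79755361-79759878, minus strand) has 252.
Cox8b: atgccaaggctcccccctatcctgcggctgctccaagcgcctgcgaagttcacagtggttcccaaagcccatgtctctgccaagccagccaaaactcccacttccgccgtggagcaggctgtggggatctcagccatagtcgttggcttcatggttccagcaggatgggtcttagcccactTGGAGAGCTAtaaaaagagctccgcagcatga
Cox8a: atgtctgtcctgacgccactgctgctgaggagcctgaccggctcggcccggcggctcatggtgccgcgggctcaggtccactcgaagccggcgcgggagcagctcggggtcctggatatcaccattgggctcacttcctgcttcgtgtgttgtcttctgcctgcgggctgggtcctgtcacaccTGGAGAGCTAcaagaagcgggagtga
Cox7a1: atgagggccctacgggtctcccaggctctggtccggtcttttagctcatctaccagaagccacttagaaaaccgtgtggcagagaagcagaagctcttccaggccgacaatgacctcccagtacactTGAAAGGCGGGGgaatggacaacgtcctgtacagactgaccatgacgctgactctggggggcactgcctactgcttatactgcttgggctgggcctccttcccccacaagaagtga
Cox7a2: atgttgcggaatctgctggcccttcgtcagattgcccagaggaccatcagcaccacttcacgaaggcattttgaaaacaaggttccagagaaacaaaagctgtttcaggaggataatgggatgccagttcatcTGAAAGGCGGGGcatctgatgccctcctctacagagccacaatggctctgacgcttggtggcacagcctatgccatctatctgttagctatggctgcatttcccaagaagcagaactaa
A global alignment gave 53.4% identical columns for the subunit 8 pair and 59.9% for the subunit 7A pair, and the longest shared runs were 10 and 12 bases. Cox6a2 and Cox6a1 were 56.3% identical with a longest run of 12 bases. No stretch of 100 bases of Cox8b-201 (0 of 261 windows), Cox7a1-201 (0 of 294) or Cox6a2-201 (0 of 581) occurs in its partner's leading transcript. A read that matches 100 bases exactly therefore fits 1 gene of the pair.

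The region before the transcription start is printed for the subunit 8 pair, whose ratio was alike in both quantifications. The sequences are those of RefSeq (GRCm38.p6). The 100 bases before the annotated start are given on the strand of the gene, and capitals mark a match to a motif searched.
Cox8b, chr7:140900447-140900546, minus strand: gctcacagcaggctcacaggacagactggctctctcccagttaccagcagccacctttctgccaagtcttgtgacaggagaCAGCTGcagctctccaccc
Cox8a, chr19:7217617-7217716, minus strand: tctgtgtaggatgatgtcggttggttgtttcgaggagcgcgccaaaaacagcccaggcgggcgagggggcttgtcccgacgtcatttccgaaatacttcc
Capitals in Cox8b mark CAGCTG, a form of the E-box motif. The searched window of Cox8b also held TATAAA, starting 4 bases after the start, and a second CAGCTG, starting 16 bases after it. Motifs were searched on both strands in 300-base windows, 250 bases before to 50 after the start, and 40 of 52 member symbols had 43 such windows. CCGGAAG, the core bound by ETS factors such as GABPA, was in 27.9% of member windows and 8.86% of all 32851 windows. GCATGCGC, a core of the NRF1 site, was in 18.6% and 2.71%. TCAAGGTCA, an element of estrogen-related receptors, was in 4.65% and 0.423%. GGGCGG, the Sp1 box, was in 41.9% and 35.7%, TATAAA in 6.98% and 13.6%, and CAGCTG in 6.98% and 16.3%. Cox8a held CCGGAAG on the reverse strand at 2 places, the first starting 5 bases before the start and running across it. These shares describe letters in a window, base composition was not matched, and binding was not measured.

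The forms of complex IV subunits known from other tissues were low or undetected. Cox4i2, the form known from lung, had 4.35 TPM in replicate 2 and 4.24 TPM in replicate 1, and Cox4i1 exceeded it by 8.58 ± 0.03 on the log2 scale. Cox6b2 had 0.530 TPM in replicate 2 (8.00 counts) and 2.04 TPM in replicate 1 (22.0 counts), and Cox6b1 exceeded it by 10.47 ± 1.24. Cox7b2 and Cox8c were listed at 0 counts in both hearts, so their ratios to Cox7b (636 and 588 TPM) and Cox8a are set by the added 0.1. Of the 5 testis and sperm markers, 4 had 0 counts in both hearts and Odf1 had 1.00 count in replicate 2 and 0 in replicate 1.

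**Figure D2:**
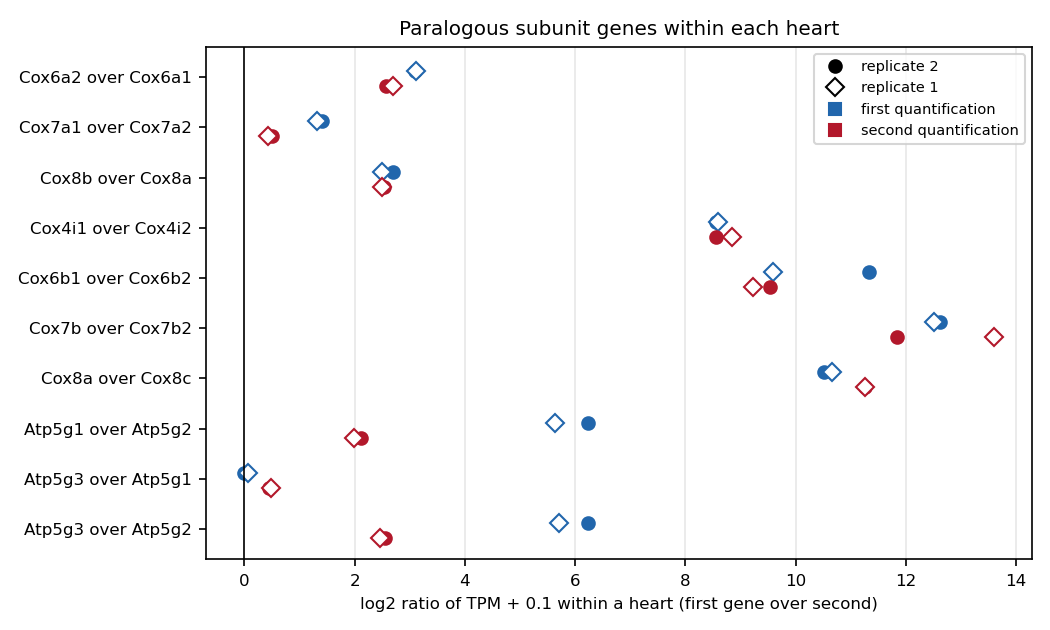
Log2 ratio of TPM + 0.1 for 10 pairs of genes of the same subunit, within the heart of replicate 2 (filled circles) and replicate 1 (open diamonds), in the first (blue) and second (red) quantification. The muscle forms Cox6a2, Cox7a1 and Cox8b lie above 0 in both hearts and both quantifications, and the ratios over Atp5g2 differ most between the quantifications (5.94 against 2.04 for Atp5g1).

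Complex V had a median of 558 TPM and took the largest share of the members' TPM, 41.9% ± 1.11, against 33.5% ± 0.879 for complex IV, 18.2% ± 0.148 for complex III and 5.21% ± 0.161 for complex II. Atp5b, the catalytic beta subunit of the F1 head, was the highest member of all with 3325 TPM in replicate 2 and 3428 TPM in replicate 1, rank 12 among nuclear protein-coding genes. Atp5c1, the gamma subunit of the central stalk, had 521 and 515 TPM, and the ratio of Atp5b to Atp5c1 was 6.38 and 6.65 within the hearts. The second quantification put this ratio at 4.37 and 4.54. F1 holds several beta subunits for each gamma subunit, and these are RNA levels only. The peripheral stalk genes Atp5o, Atp5h, Atp5j and Atp5f1 and the other central stalk and membrane genes Atp5l, Atp5e, Atp5mpl, Atp5d, Atp5j2 and Atp5k had between 386 and 859 TPM in either heart. Atp5k, membrane subunit e, with 398 TPM in replicate 2 and 393 TPM in replicate 1, and Atp5j2, membrane subunit f, with 407 and 386 TPM, overlapped at the low end, above Atp5g2 and the second Atp5o identifier. The second quantification separated this pair, with 589 and 569 TPM for Atp5k and 955 and 857 TPM for Atp5j2.

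The ring of c subunits, which turns as protons pass, is encoded by 3 genes whose products differ in the import sequence and share the mature protein. Atp5g3 had 1363 TPM in replicate 2 and 1289.6 TPM in replicate 1, and Atp5g1 had 1371 and 1228 TPM. Their log2 ratio was -0.01 in replicate 2 and 0.07 in replicate 1, so this pair had no order beyond its spread, the only 1 of the 10 pairs examined without one. In the second quantification Atp5g3 was higher in both hearts, by 0.46 ± 0.02. Atp5g2 had 18.0 and 24.6 TPM, and Atp5g1 exceeded it by 5.94 ± 0.43 on the log2 scale. In the second quantification Atp5g2 had 328 and 304 TPM and the ratio was 2.04 ± 0.09, so Atp5g2 was the lowest of the 3 in both, by very different amounts. Summed over the 3 genes, the c ring had 2752 TPM in replicate 2 and 2543 TPM in replicate 1.

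Near-identical copies of members elsewhere in the genome stood beside this difference. Aligned to all annotated transcripts, 12 members had 24 copies at 97% identity or more over at least 150 bases, annotated as processed pseudogenes (Gm10175 and Gm10012 as transcribed ones) apart from Gm11273, a copy of Cox5b, and Gm10053, a copy of Cycs, which are annotated as protein-coding. Gm10175 (chr7:23946646-23947290) matched Atp5g2 (chr15:102662864-102672352) at 100% over 645 bases. The first quantification gave Gm10175 4536 counts in replicate 2 and 3920.0 in replicate 1, and Atp5g2 itself 399 and 508. In the second, Atp5g2 had 4330.0 and 3952 counts and its copies had 0. The first 120 coding bases of Atp5g2, which also stand unbroken in Gm10175, show what a read has to go by, and capitals mark the longest run of these bases that Atp5g1 also holds.
Atp5g2: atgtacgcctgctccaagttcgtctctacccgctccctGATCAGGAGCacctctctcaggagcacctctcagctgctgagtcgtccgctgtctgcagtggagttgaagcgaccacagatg
That run is 10 bases long and starts at base 39 of the Atp5g2 coding sequence but at base 242 of that of Atp5g1. Over the whole leading transcripts of the first quantification the longest run shared by these 2 genes was 21 bases. Of the 632 windows of 100 bases in Atp5g2-202, 546 (86.4%) occur unchanged in a copy. Counts of Atp5g2 and its copies together differed by -0.18 on the log2 scale between the second and first quantification, and those of Atp5g2 alone by 3.19.

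For Cycs, copies held 33.2% of counts in the second quantification, the largest share there, and 68.2% in the first, the largest after Atp5g2. They lay mainly in Gm10053 (chr19:24875686-24876631), a gene annotated as protein-coding that matched at 99.9% over 946 bases. In the first quantification Gm10053 had 12098 counts in replicate 2 and 9283 in replicate 1, more than the 6332 and 4959 of Cycs. In the same quantification copies held 39.4% of the counts of Cox7c, 19.5% of Atp5h, 16.1% each of Atp5l and Cox7a2l, 7.98% of Cox5b, and under 5% of Atp5g1, Atp5o, Atp5f1, Uqcrb and Uqcr11. In the second quantification copies held 4.95% of Atp5o, 1.60% of Cox7a2l and under 0.1% of the 9 members other than these and Cycs. Levels of these 12 members are uncertain on this account, but the shares do not bound that uncertainty. Uqcrb had 0.283% of counts in copies in the first quantification. Its counts still differed by -0.7 on the log2 scale, second over first.

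**Figure D3:**
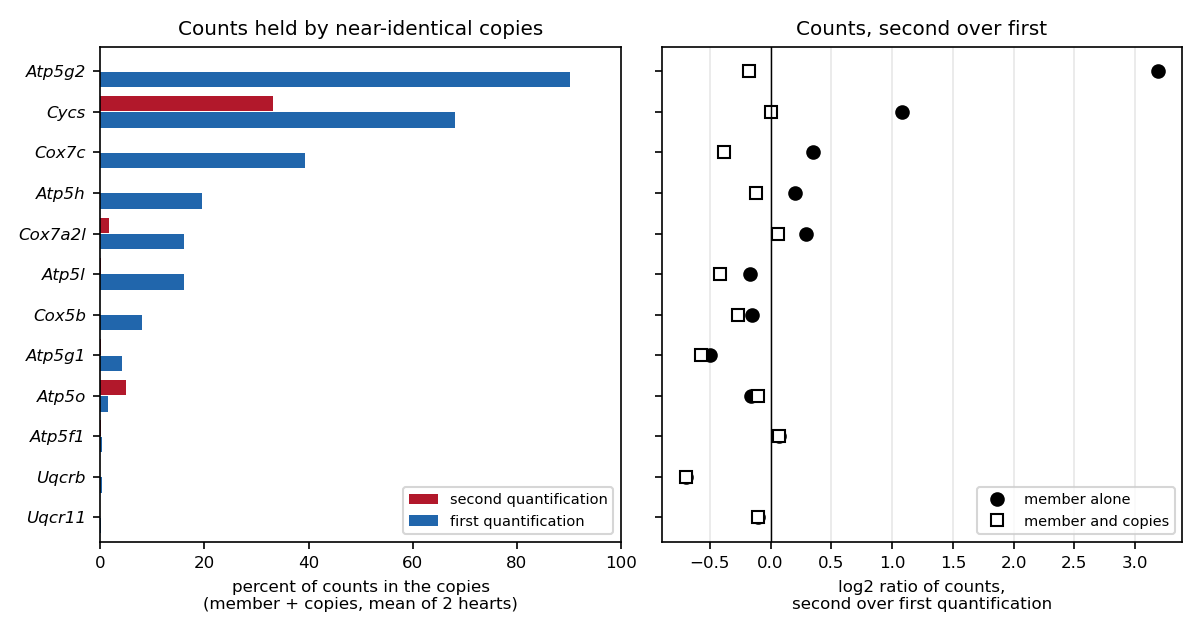
Left, percent of the counts of a member and its copies that the copies hold in the second (red) and first (blue) quantification; right, log2 ratio of counts, second over first, for the member alone (filled circles) and with its copies (open squares), for the 12 members with copies. Atp5g2 and Cycs lie farthest from 0 alone (3.19 and 1.08) and near 0 with their copies (-0.18 and 0.00).

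Over all members the quantifications differed more than they did for other genes. In the second, 10 of 50 members with at least 1 TPM in the first had 2-fold or more higher TPM, 20.0%, where 2.04% of 11130 protein-coding genes did. No member was 2-fold lower, where 0.710% of genes were. The farthest were Atp5g2 (14.7-fold) and Cycs (13.3-fold), followed by Atp5e (2.76-fold), Cox7c (2.69-fold), Cox7a2 (2.34-fold), Atp5j2 (2.28-fold), Cox7b (2.18-fold) and Atp5h (2.17-fold). The median log2 ratio was 0.47 over the members and 0.27 over all protein-coding genes. With both scaled to nuclear protein-coding genes, 3 members stayed 2-fold higher, Atp5e, Cycs and Atp5g2, and Cox6b1 was 2-fold lower, where 0.647% of 12527 genes were higher and 1.38% lower. With copies summed into their members, 6 of 50 were higher, where 2.00% of genes were, and Atp5g2, Cycs, Cox7c and Atp5h were no longer among them.

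The median ratio in TPM was alike for short and long members, while the median ratio in counts was lower for short ones. In TPM the median log2 ratio was 0.48 for the 23 members whose leading transcript is under 600 bases. It was 0.44 for the 27 at 600 bases or more, with 5 members 2-fold higher in each set. In counts the medians were -0.3 and -0.03. Counts and TPM did give different ratios, and effective lengths were shorter in the second quantification. For Atp5e-201, of 421 bases, the effective length was 116 bases in the second and 322 in the first. Atp5e, the epsilon subunit, had a log2 ratio of 0.21 in counts and 1.46 in TPM. Over the members the median log2 ratio was -0.12 in counts and 0.47 in TPM, and over protein-coding genes 0.07 in counts and 0.27 in TPM. The part of effective length in the TPM ratios was not tested.

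A single annotated transcript carried most of the level of most members, but the quantifications named different ones. In the first, 48 of 50 members had 1 transcript in the lead in either heart, and it took over 50% in both hearts for 44. In the second these numbers were 44 and 42. For 29 of 50 the quantifications named the same leader in replicate 2, though for Atp5g3 and Atp5s the second named another in replicate 1. Among the most abundant members that differed, Cox4i1-205 led in the second with 65.9% ± 3.08 and Cox4i1-201 in the first with 90.2% ± 0.174. Cox6b1-201 (97.9% ± 2.59) stood against Cox6b1-204 (51.4% ± 2.22), and Atp5g1-203 (99.7% ± 0.0217) against Atp5g1-202 (97.8% ± 0.171). Cox7a1-202 had 51.8% ± 1.67 in the second, and Cox7a1-201 97.2% ± 0.0778 in the first, while Atp5h-202 led the second with 33.0% ± 5.58 and Atp5h-201 the first with 72.5% ± 0.901. For Atp5g3, Atp5g3-201 had 77.4% in replicate 2 and 15.8% in replicate 1 in the second, and 76.7% and 77.0% in the first. For Cycs, whose counts were also divided differently with its copies, Cycs-201, a retained-intron transcript of 607 bases, led the second with 92.1% ± 0.152, and Cycs-202, of 3123 bases, led the first with 94.7% ± 1.00. The leading transcript was not annotated as protein-coding for 10 members in the second and 6 in the first. Transcript choice within these genes is therefore not settled by the deposited tables.

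Between the hearts, most members differed little. Of the 49 members that passed the filter on low counts (mean CPM of at least 1), 0 were 2-fold or more higher in replicate 2, where 0.294% of 12908 genes were, and 0 were 2-fold or more higher in replicate 1, where 0.906% were. There is 1 library from each animal, so these are differences between 2 libraries with no replicate test. Ratios of replicate 2 over replicate 1 after TMM scaling lay within 1.2-fold for 47 of 49 members (95.9%), against 79.4% of all genes tested. Where the mean was at least 100 CPM the shares were 97.4% of 39 members and 89.0% of 975 genes. The log2 ratio was above 0 for 35 members and below 0 for 14, but the sign of ratios this small depends on the scaling, since spike-in totals put the median of all genes at -0.13 and TMM at 0.01.

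Atp5a1, the alpha subunit of the F1 head, was the exception. It had 1497 TPM (123551 counts) in replicate 2 and 736 TPM (56491 counts) in replicate 1, a log2 ratio of 0.99 with an exact binomial 95% interval of 0.98 to 1.00, or 1.99-fold, just under the 2-fold threshold. That interval covers counting error only. The second quantification gave 1947 and 889.9 TPM, and a log2 ratio of 0.98. Of the 37 genes at least as abundant, itself included, no other was as far towards replicate 2 and 3 were as far towards replicate 1. The difference lay mainly in Atp5a1-201, with 122857 counts in replicate 2 and 55999 in replicate 1. The retained-intron transcript Atp5a1-203 was also higher in replicate 2, with 427 against 177 counts, and 1949 against 477 in the second quantification. Atp5a1-202 was lower, with 189 against 252 counts in the first. The annotated neighbours of Atp5a1 on chromosome 18 within 500 kb, 4 genes past the same filter, had log2 ratios from -0.14 to 0.27. The partner gene Atp5b had 3325 and 3428 TPM, so the Atp5b to Atp5a1 ratio was 2.22 in replicate 2 and 4.66 in replicate 1, while in the assembled head the 2 proteins are present in equal numbers. Summed red cell markers had 23411 TPM in replicate 2 and 46562 TPM in replicate 1, and summed adipocyte markers 31.4 and 221 TPM. Their part in the Atp5a1 difference was not tested.

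The other members farthest from 0 were small differences. Cycs had 61.9 TPM in replicate 2 and 52.8 TPM in replicate 1 (log2 ratio 0.21), and Uqcc3, a complex III assembly factor, had 21.5 and 18.2 TPM (0.21). In the other direction Atp5g2 had 18.0 and 24.6 TPM (-0.49, exact binomial 95% interval -0.68 to -0.30), Cox8a 146 and 162 TPM (-0.19), and Cox6a2 856 and 944 TPM (-0.18). The Atp5g2 interval covers counting error only, not the division of counts between Atp5g2 and its copies. Atp5g2 was the only member beside Atp5a1 outside 1.2-fold. Its second quantification, with 4330.0 counts in replicate 2 and 3952 in replicate 1, gave a log2 ratio of 0.00, so this difference appeared in 1 of the quantifications only.

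**Figure D4:**
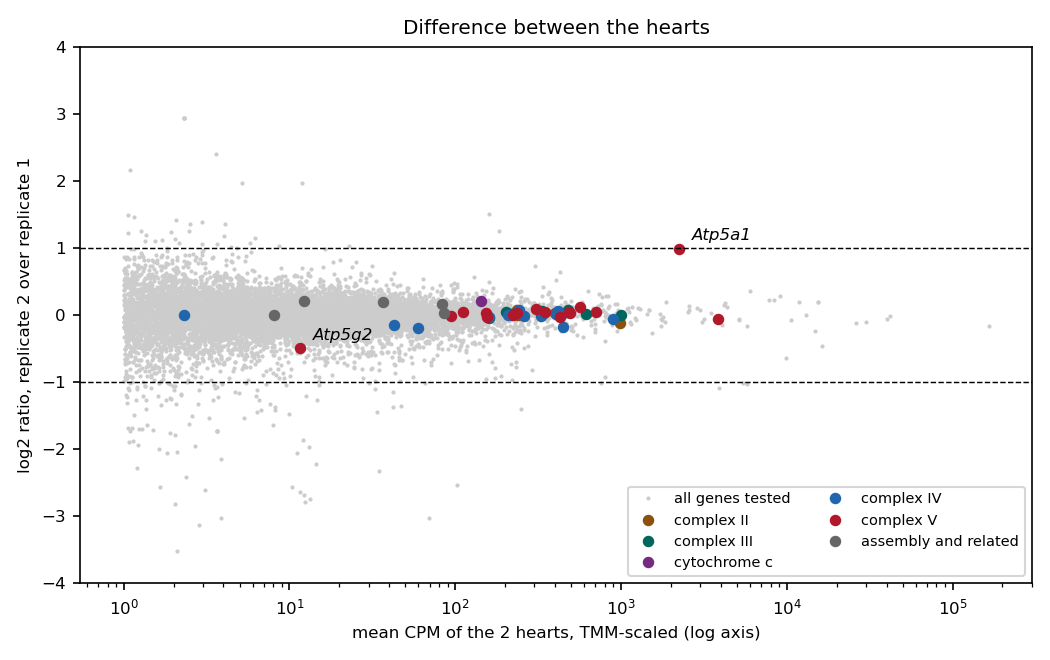
Log2 ratio of replicate 2 over replicate 1 against mean CPM (log axis, TMM-scaled) for all genes tested (grey) and the members by complex (colours), with dashed lines at 2-fold; 5 genes lie beyond the plotted range of 4 in either direction. Members sit close to 0 at high counts, apart from Atp5a1 at 0.99 and Atp5g2 at -0.49.

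The 5 assembly and related members had a median of 87.5 TPM, under the medians of complexes II to V, though a few subunit genes such as Cox6a1, Atp5g2 and Cox4i2 were as low or lower. Uqcc2 had 116 TPM in replicate 2 and 98.5 TPM in replicate 1, and Uqcc1 had 95.8 and 79.2 TPM, both needed to make cytochrome b of complex III. Cox7a2l, a relative of subunit 7A that takes part in joining complexes III and IV into supercomplexes, had 104 and 98.7 TPM. Uqcc3 had 21.5 and 18.2 TPM, and Atp5s, a coupling-factor-like protein, had 9.88 and 8.85 TPM.

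Other genes of the pathway lay in the same low range. All 37 assembly factors and accessory genes found (of 38 symbols) reached 1 TPM in both hearts, where 49.5% of protein-coding genes did. Their median was 22.8 TPM. Between the hearts 0 of 37 were 2-fold apart, near the share of all 12908 genes tested (0.294% higher in replicate 2 and 0.906% in replicate 1). For complex II, Sdhaf4 had 25.1 TPM on average, Sdhaf2 24.2, Sdhaf1 4.17 and Sdhaf3 1.55 TPM. For complex III, the chaperone genes Bcs1l and Lyrm7 had 11.6 TPM each and Ttc19 had 12.8 TPM. For complex IV, the copper chaperone gene Cox17 had 98.9 TPM and Cox14 77.5 TPM, and the lowest were Coa4 (4.90 TPM), Cox18 (4.36 TPM) and Pet117 (3.22 TPM). The second quantification gave Pet117 a mean of 0.0204 TPM, so that its detection rests on the first. For complex V, Fmc1 had 86.2 TPM, Tmem70 40.5 and Atpaf1 27.5 TPM, and Atpaf2 had 17.9 TPM in replicate 2 and 16.2 TPM in replicate 1. The exceptions encode subunits: Ndufa4, once assigned to complex I and now to complex IV, had 1100.2 TPM, and Usmg5, a small membrane subunit of complex V, had 879.8 TPM, levels like those of the member subunits.

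Of the 6 mitochondrially encoded subunits of the same complexes, 5 lay above every member in the first quantification. mt-Co1, the catalytic subunit of complex IV, had 33986 TPM in replicate 2 and 33581 TPM in replicate 1, and mt-Co3 had 17793 and 18188 TPM. mt-Atp6, the proton channel subunit of complex V, had 17101 and 14298 TPM, and mt-Cytb, cytochrome b of complex III, had 14264 and 12192 TPM. mt-Atp8 had 3527 and 3587 TPM and mt-Co2 787 and 751 TPM. Levels of 3 of them differed most between the quantifications. The second gave a mean of 0 TPM for mt-Atp8, against 3557 TPM in the first, and 4961 TPM for mt-Co2, against 769 TPM. For mt-Atp6 it gave 28727 TPM, against 15699 TPM, which put mt-Atp6 above mt-Co3 (14846 TPM) there.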

How the data were processed

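Heart RNA of 2 mice was sequenced. The authors deposited estimated counts and TPM for each gene and transcript, each transcript's percent of its gene, and interval bounds of TPM (a signal, not analysed for results) in the first quantification, per the file headers. In the second they deposited estimated counts and TPM for each transcript, per the file headers, which were summed by gene. For aligners and their settings, the entry is: not given in the sources used here. The assembly is mm10 and the annotation GENCODE M21 per the deposited text files.

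Gene rows without the 26248 transfer RNA rows and without spike-ins were used. Counts were rounded and scaled by TMM (edgeR 4.0.16, R 4.3.3). A mean CPM of at least 1 was required, and a ratio of 2-fold or beyond was counted as a difference. A count of 0 was set at 3. Intervals are exact binomial, 95%, and cover counting error only. Isoform pairs used log2 of TPM + 0.1 and counted when above 0 in both hearts with the mean above the SD. No p is given, since 0.5 is the smallest two-sided p that exact sign flips over 2 hearts allow. Copies were found with blastn 2.17.0 (97% identity, 150 bases, 50% of the copy covered), a step chosen after seeing the data, as were the sequence and motif steps. Coding sequences were aligned with Biopython 1.88. Only the TMM-scaled ratios between the hearts were tested on simulated counts, and the other steps were not.

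Members named in full were, in each complex, the 3 highest and 2 lowest, the isoform pairs, those under 1 TPM, those farthest apart between hearts or quantifications, and the abundant ones whose leading transcript differed. The members, lists and rules were chosen with earlier results of these data known. Marker lists for skeletal muscle (2.81 and 2.84 TPM summed in replicates 2 and 1), liver (0.190 and 0.370), fibroblast (217 and 239) and endothelium (149 and 132) were summed as well.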

Additional observations from a re-analysis of the deposited data

Results flagged for a closer look

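Cox6c2, annotated as a processed pseudogene and therefore left out of the members, carried a signal: 36.3 estimated counts in replicate 2 and 27.9 in replicate 1, above the 3 counts that a count of 0 allows. The second quantification gave it 0 counts in both hearts.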

How the results depend on the processing

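No paired analysis was possible because there is 1 group. Levels moved with the quantification: the second gave medians of 383, 906, 764, 976, 906 and 114 TPM for complex II, complex III, cytochrome c, complex IV, complex V and the assembly genes, and sums of 1666, 8205, 15203, 18757 and 476 TPM without cytochrome c. TPM rescaled to nuclear protein-coding genes gave medians of 1132, 1478, 154, 1643, 1498 and 235, and sums of 4397, 15326, 28256, 35432 and 874. Posterior mean TPM moved the medians of complexes III (540.3) and V (547) and the sums of complexes II (1608) and IV (10323). Leaving out 1 heart gave medians of 416 to 428, 552 to 555, 52.8 to 61.9, 588 to 636, 556 to 560.3 and 79.2 to 95.8 TPM, and sums of 1634 to 1642, 5601 to 5813, 10463 to 10585, 12622 to 13757 and 303 to 347. It left 9 to 10 pairs with the first form higher, and the log2 ratio of Atp5g3 over Atp5g1 was -0.01 without replicate 1 and 0.07 without replicate 2.

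Between the hearts, 0 members were called with DESeq2 size factors, spike-in totals or the second quantification. Few genes were called in all. With DESeq2 size factors 39 of 12908 were higher in replicate 2 and 112 in replicate 1. With spike-in totals these were 26 and 173 of 12923, and in the second quantification 35 and 105 of 13106. With no filter 1 was called (Cox6b2, higher in replicate 1), where 2154 of 24638 genes were called towards replicate 2 and 2704 towards replicate 1. These tallies include calls in the wrong direction, because a count of 0 was raised to a floor above 1 count. Odf1, with 1.00 count in replicate 2 and 0 in replicate 1, thus had a log2 ratio of -1.72. The unfiltered tallies therefore do not show how many genes were higher in either heart. At a 1.5-fold threshold 1 was called (Atp5a1, higher in replicate 2), where 201 and 383 of 12908 genes were. Atp5a1 had a log2 ratio of 0.85 by spike-in totals, where the median of all genes was -0.13. Between the quantifications, 17 members (16 higher, 1 lower) differed at a 1.5-fold threshold, where 14.0% of genes were higher and 1.11% lower. At the 2-fold threshold 4 differed after rescaling to nuclear protein-coding genes, where 0.647% of genes were higher and 1.38% lower. With copies summed (a setting chosen after seeing the data) 6 differed, where 2.00% of genes were higher and 0.710% lower. With 1 heart left out 9 to 10 differed, where 1.99% to 2.65% of genes were higher and 0.764% to 0.765% lower. Depth limits Cox6b2, at 8.00 counts in replicate 2 and 22.0 in replicate 1.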
